A study of Mus musculus with 8 samples.

Results

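The outer segment of a rod or cone photoreceptor is a modified cilium packed with a stack of membrane discs that hold the visual pigment. 10 genes that build or surround this structure were described: Prph2 and Rom1 of the disc rim, Prom1, Cdhr1, Fscn2 and Reep6 of disc formation and membrane supply, Rp1 and Rp1l1 of the axoneme, and Impg1 and Impg2 of the interphotoreceptor matrix. They were chosen by symbol, with earlier results of these data known, and all 10 were present among the 24860 genes of the deposited table. All 10 averaged 1 FPKM or more across the 8 libraries and so entered the test.

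RNA was sequenced from 8 mouse retina libraries. 4 carry the label AAV2-shCX36, an adeno-associated virus with a hairpin RNA against connexin 36, the gap junction protein encoded by Gjd2. The other 4 carry the label AAV2-scramble, a virus with a control hairpin, so both groups received a virus and a hairpin, and no untreated retina was analysed here. The labels name the cell type as RGCs (retinal ganglion cells) and give no age, strain, injury, time after virus, sorting or batch. They do not tie libraries to single mice, so the spread behind each p-value is that among these libraries and may be technical.

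In rods, discs are made at the base of the outer segment from the plasma membrane of the cilium. They close their rims and move outward until the pigment epithelium removes the tips. Prph2 and Rom1 are related tetraspanins that join into complexes and bend the membrane at the rim, and photoreceptors without Prph2 fail to form outer segments. The microtubule axoneme runs along the stack, and a matrix of proteoglycans fills the space around it.

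The libraries held abundant transcripts of both ganglion cells and photoreceptors. All 10 ganglion cell markers and all 14 rod and cone markers were above 1 FPKM in the controls, with Thy1, a surface protein of ganglion cells, at a mean of 724 FPKM over the 8 libraries. FPKM scales the fragments of a gene by its length and by the depth of the library. Levels can be compared between genes only roughly, since the annotation behind the lengths is not given. By the step between low values, each library held some 36200000 to 39000000 fragments counted in genes. Markers of the retinal pigment epithelium were near 0, with 7 of 8 under 1 FPKM in the controls and Rpe65 at 0.00338 ± 0.00676 FPKM (SD, n = 4) there and at 0 in every AAV2-shCX36 library. The targeted gene Gjd2 had 14 to 17.03 FPKM in AAV2-shCX36, and 38.7, 35.9, 17.4 and 18.2 in AAV2-scramble 1 to 4, with a log2 difference of -0.70 ± 0.25 SE and an adjusted p of 0.148 in limma. Its log2 difference was -0.19 (adjusted p = 0.245) when AAV2-scramble 1 and 2 were left out and -1.21 (adjusted p = 0.00083) when 3 and 4 were left out, so its size rests on AAV2-scramble 1 and 2. Gjd2 also overlaps A530058N18Rik, an annotated gene on the opposite strand with a mean of 7.11 FPKM over the 8 libraries. Whether reads were counted by strand is not given.

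After AAV2-shCX36, 7 of the 10 outer segment structure genes fell and none rose (adjusted p under 0.05 in limma over all 12858 genes tested). The 7 were Prph2, Rom1, Cdhr1, Fscn2, Rp1, Rp1l1 and Impg1, at 50.1% to 69.7% of the control mean. Over all genes tested, 2.52% were called lower and 2.24% higher, 4.76% in all. At an unadjusted p under 0.05 there were 9 of the 10, against 22.6% of all genes. Every AAV2-shCX36 value lay below every AAV2-scramble value for 8 of the 10, the 7 and Reep6, against 7.05% of all genes, and none lay wholly above the controls, against 8.85%. The median log2 difference of the 10 was -0.68, beside 0.01 for all genes tested. In bulk RNA, fewer photoreceptors in a library and less RNA per photoreceptor cannot be told apart.

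**Figure D1:**
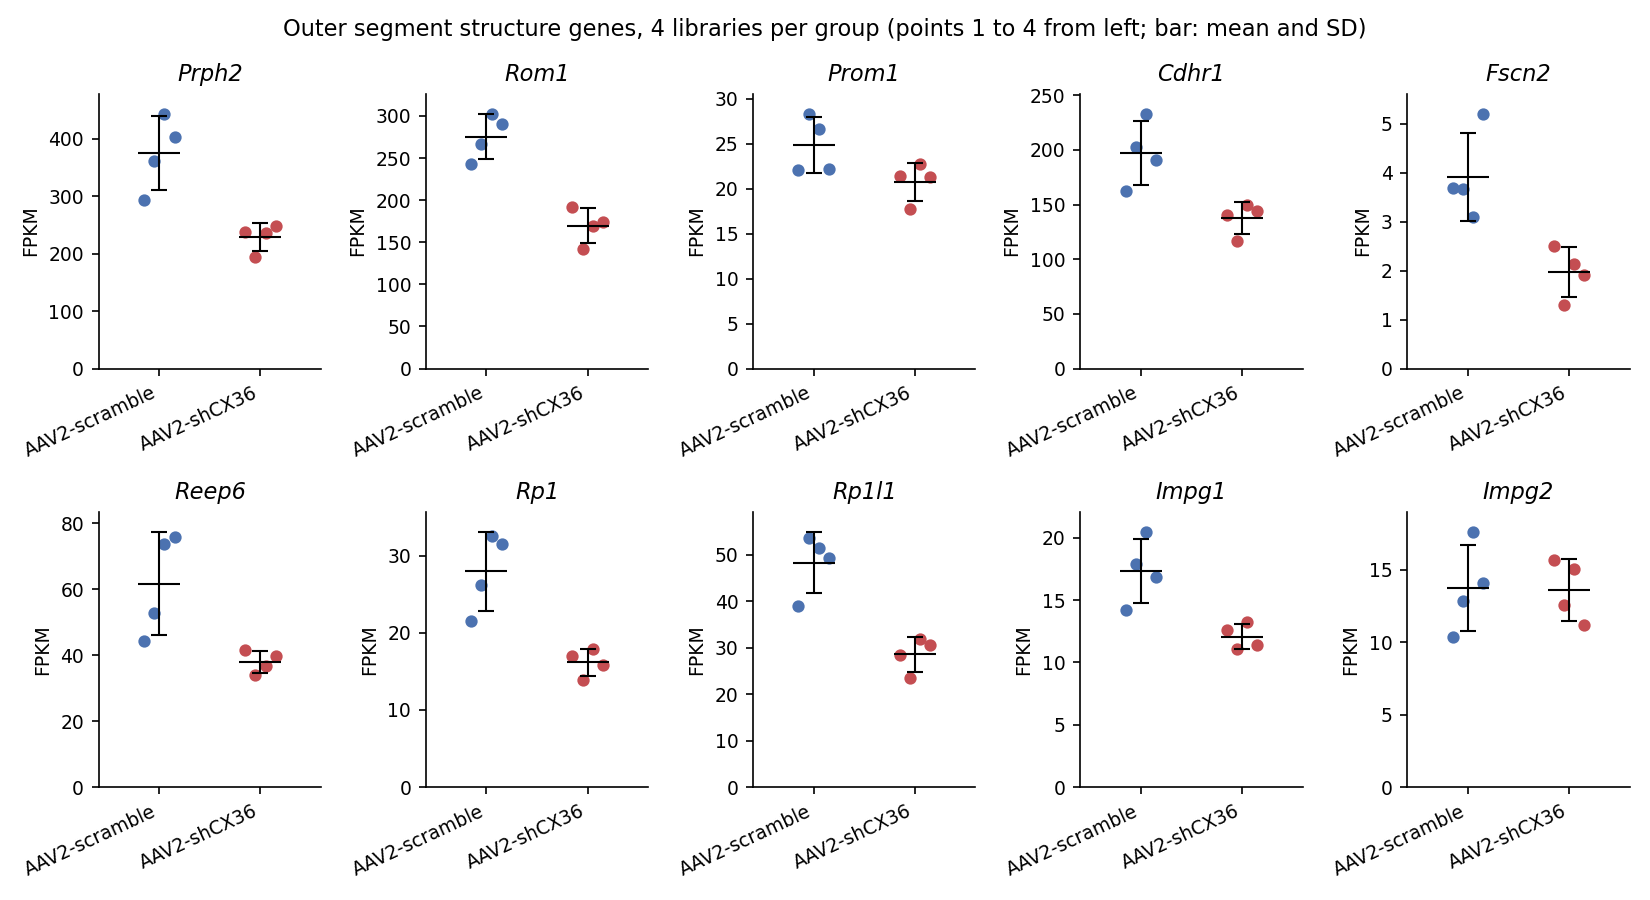
FPKM of the 10 outer segment structure genes (y axis, linear from 0) in each library, with AAV2-scramble in blue, AAV2-shCX36 in red, and the mean ± SD of 4 libraries in black. The red points lie below all blue points in 8 panels, and the groups overlap for Prom1 and Impg2.

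The control levels put Prph2 first at 375 FPKM, followed by Rom1 at 275, Cdhr1 at 197, Reep6 at 61.7 and Rp1l1 at 48.3. Rp1 at 27.9, Prom1 at 24.8, Impg1 at 17.3 and Impg2 at 13.7 FPKM came next, and Fscn2 was lowest at 3.92. The control ranges overlapped for Prph2 with Rom1, Reep6 with Rp1l1, Rp1 with Prom1, and Impg1 with Impg2. Within each control library, however, Prph2 exceeded Rom1 and Impg1 exceeded Impg2. All other neighbours in this order had separate control ranges.

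The disc rim genes were the most abundant of the 10. Prph2 (GRCm38 chromosome 17, 46910459 to 46924933, plus strand) encodes peripherin 2, the tetraspanin without which rims do not form. It stood at 294, 361, 443 and 403 FPKM in AAV2-scramble libraries 1 to 4, and at 237, 194, 236 and 249 in AAV2-shCX36 libraries 1 to 4. The highest AAV2-shCX36 value was thus under the lowest control, AAV2-scramble 1. Prph2 fell to 61.0% of the control mean, from 375 ± 63.8 to 229 ± 23.9 FPKM (SD, n = 4; log2 difference -0.70 ± 0.13 SE, adjusted p = 0.0226 in limma). Rom1 (chromosome 19, 8927391 to 8929356, minus strand) encodes the partner tetraspanin. Rom1 stood at 242, 266, 302 and 290 FPKM in AAV2-scramble 1 to 4 and at 192, 142, 170 and 175 in AAV2-shCX36 1 to 4. Its log2 difference was -0.70 ± 0.10, with an adjusted p of 0.0108 in limma. Both genes were lower in AAV2-scramble 1 and 2 than in AAV2-scramble 3 and 4.

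The stretches before the starts of both rim genes are shown because these partner genes fell together. They run from 100 to 21 bases upstream of the RefSeq start (GRCm38.p6), 5′ to 3′ on the strand of the gene, with GATTA or its reverse complement TAATC in capitals. These are core letters bound by photoreceptor homeodomain factors such as Crx.
Prph2, chr17:46910378-46910457, plus strand: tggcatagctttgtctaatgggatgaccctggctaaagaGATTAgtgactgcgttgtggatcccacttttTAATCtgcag
Rom1, chr19:8929377-8929456, minus strand: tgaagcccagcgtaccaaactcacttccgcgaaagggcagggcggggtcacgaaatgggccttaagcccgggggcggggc
Prph2 held GATTA 61 bases and TAATC 30 bases upstream of its start, and the Rom1 window held neither. Windows from 250 bases before to 50 after a start were given for 7 of the 10 genes, in 8 windows, and 4 of the 7 genes held GATTA or TAATC (Prph2, Prom1 at 1 of 2 starts, Impg1 and Impg2). Counted by window, 4 of the 8 held it on either strand, against 22.0% of all 32851 windows. The longer TAATCC or GGATTA, which overlaps it, and TGCTGA or TCAGCA, part of the element bound by Nrl, were in none of the 8 windows and in 7.06% and 19.5% of all windows. A match in letters is a description only.

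Of the 4 genes of disc formation and membrane supply, Cdhr1 and Fscn2 fell. Cdhr1 (chromosome 14, 37077857 to 37098347, minus strand) encodes a photoreceptor cadherin at the edge of forming discs. Cdhr1 stood at 163, 203, 233 and 191 FPKM in AAV2-scramble 1 to 4 and at 141, 116, 150 and 144 in AAV2-shCX36 1 to 4. The groups did not overlap, with a log2 difference of -0.51 ± 0.12 and an adjusted p of 0.0435 in limma. Fscn2 (chromosome 11, 120361534 to 120368168, plus strand) encodes the retinal fascin, an actin-bundling protein. Fscn2 stood at 3.70, 3.68, 3.09 and 5.20 FPKM in AAV2-scramble 1 to 4 and at 2.51, 1.29, 2.14 and 1.91 in AAV2-shCX36 1 to 4. Its mean fell to 50.1% of control, from 3.92 ± 0.902 to 1.96 ± 0.510 FPKM (adjusted p = 0.0412 in limma). The log2 difference of -0.73 ± 0.16 was taken on log2(FPKM + 1), which understates the change of a gene this low, and was -0.97 with 0.1 in place of 1. From the gene length in GENCODE and the estimated depth, the lowest Fscn2 value stands for about 104 fragments.

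Reep6 and Prom1 did not pass the test. Reep6 (chromosome 10, 80329953 to 80336441, plus strand) encodes an endoplasmic reticulum membrane protein needed in rods. Reep6 stood at 44.2, 52.8, 73.7 and 75.9 FPKM in AAV2-scramble 1 to 4, with 41.4, 34.0, 36.9 and 39.6 in AAV2-shCX36 1 to 4. The lowest control, at 44.2, lay above the highest AAV2-shCX36 library, at 41.4, and the controls varied more than those of any other member (coefficient of variation 25.3%), with AAV2-scramble 3 and 4 well above 1 and 2. The log2 difference was -0.65 ± 0.16 and the adjusted p 0.0590 in limma. With AAV2-scramble 1 and 2 left out Reep6 passed at -0.96 (adjusted p = 0.00119), with AAV2-scramble 3 and 4 left out it passed at -0.34 (adjusted p = 0.0379), and without AAV2-scramble 1 alone it passed at -0.80 (adjusted p = 0.0189).

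Prom1 (chromosome 5, 43993620 to 44102032, minus strand) encodes prominin 1, a membrane protein of the open edges of new discs. Prom1 stood at 22.1, 28.3, 26.7 and 22.3 FPKM in AAV2-scramble 1 to 4 and at 21.4, 17.8, 22.7 and 21.3 in AAV2-shCX36 1 to 4. AAV2-shCX36 3 lay above AAV2-scramble 1 and 4, and the other AAV2-shCX36 libraries lay below all controls. The log2 difference was -0.24 ± 0.10 with an adjusted p of 0.202 in limma. Prom1, Rp1 and Impg1 each overlap another annotated gene that is absent from the table, and whether reads were counted by strand is not stated in the labels.

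Both axoneme genes fell. Rp1 (chromosome 1, 3999557 to 4409241, minus strand) encodes a microtubule-binding protein of the axoneme with doublecortin domains, and Rp1l1 (chromosome 14, 63992506 to 64035025, plus strand) its retinal relative. Rp1 stood at 21.6, 26.2, 32.5 and 31.5 FPKM in AAV2-scramble 1 to 4 and at 17.01, 13.9, 17.9 and 15.8 in AAV2-shCX36 1 to 4. Rp1l1 stood at 38.9, 53.6, 51.4 and 49.2 FPKM in AAV2-scramble 1 to 4 and at 28.3, 23.4, 31.8 and 30.5 in AAV2-shCX36 1 to 4. Neither gene's groups overlapped, and AAV2-shCX36 2 was the lowest library for both. The log2 differences were -0.74 ± 0.13 for Rp1 and -0.74 ± 0.12 for Rp1l1 (adjusted p = 0.0181 and 0.0140 in limma).

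Of the 2 matrix genes, Impg1 fell and Impg2 did not pass the test. Impg1 and Impg2 encode related proteoglycans of the interphotoreceptor matrix, of which Impg2 spans the membrane. Impg1 (chromosome 9, 80313330 to 80465481, minus strand) stood at 14.2, 17.9, 20.4 and 16.9 FPKM in AAV2-scramble 1 to 4 and at 12.6, 11.1, 13.2 and 11.4 in AAV2-shCX36 1 to 4. It fell to 69.6% of the control mean with no overlap between groups (log2 difference -0.48 ± 0.11, adjusted p = 0.0392 in limma). Impg2 (chromosome 16, 56204313 to 56273756, plus strand) stood at 10.4, 12.8, 17.6 and 14.1 FPKM in AAV2-scramble 1 to 4 and at 15.7, 12.6, 15.04 and 11.2 in AAV2-shCX36 1 to 4. The Impg2 groups overlapped throughout, and its log2 difference of -0.0022 ± 0.15 had an adjusted p of 0.995 in limma. The difference between the 2 genes was tested by their ratio, with the other family pairs. The stretches from 100 to 21 bases before the RefSeq starts are shown because both genes hold the letters GATTA there, and Impg1 was called while Impg2 was not.
Impg1, chr9:80465459-80465538, minus strand: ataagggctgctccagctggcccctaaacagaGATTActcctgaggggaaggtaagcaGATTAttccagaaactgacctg
Impg2, chr16:56204213-56204292, plus strand: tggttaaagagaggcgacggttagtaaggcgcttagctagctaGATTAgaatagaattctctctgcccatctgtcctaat
GATTA in capitals lies 68 and 42 bases upstream of the Impg1 start and 57 bases upstream of the Impg2 start.

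Ratios of FPKM within a library compare 2 genes free of the library's scaling. 3 family pairs were compared, chosen after their values were seen. Each had a two-sided exact permutation test, with 70 ways to label the libraries. The value tested was the difference of log2(FPKM + 1) between the 2 genes, which the added 1 keeps from being wholly free of scaling. The ratio of Impg2 to Impg1 was 0.732, 0.718, 0.861 and 0.838 in AAV2-scramble 1 to 4 and 1.24, 1.13, 1.14 and 0.980 in AAV2-shCX36 1 to 4. Every AAV2-shCX36 ratio exceeded every control ratio, with means of 1.12 ± 0.108 against 0.787 ± 0.0725 (SD, n = 4; log2 difference 0.48, exact p = 0.0286). This is the smallest p that 4 against 4 libraries allow, and adjusted over the 3 pairs it was 0.0857, which does not pass 0.05. The ratio of Prph2 to Rom1 was 1.35 ± 0.0833 in AAV2-shCX36 and 1.36 ± 0.107 in AAV2-scramble (exact p = 0.943, n = 4), with ranges of 1.23 to 1.42 and 1.21 to 1.46. The ratio of Rp1l1 to Rp1 was 1.76 ± 0.120 against 1.75 ± 0.227 (exact p = 1, n = 4), with ranges of 1.66 to 1.93 and 1.56 to 2.04. Prph2 exceeded Rom1, and Rp1l1 exceeded Rp1, in all 8 libraries.

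**Figure D2:**
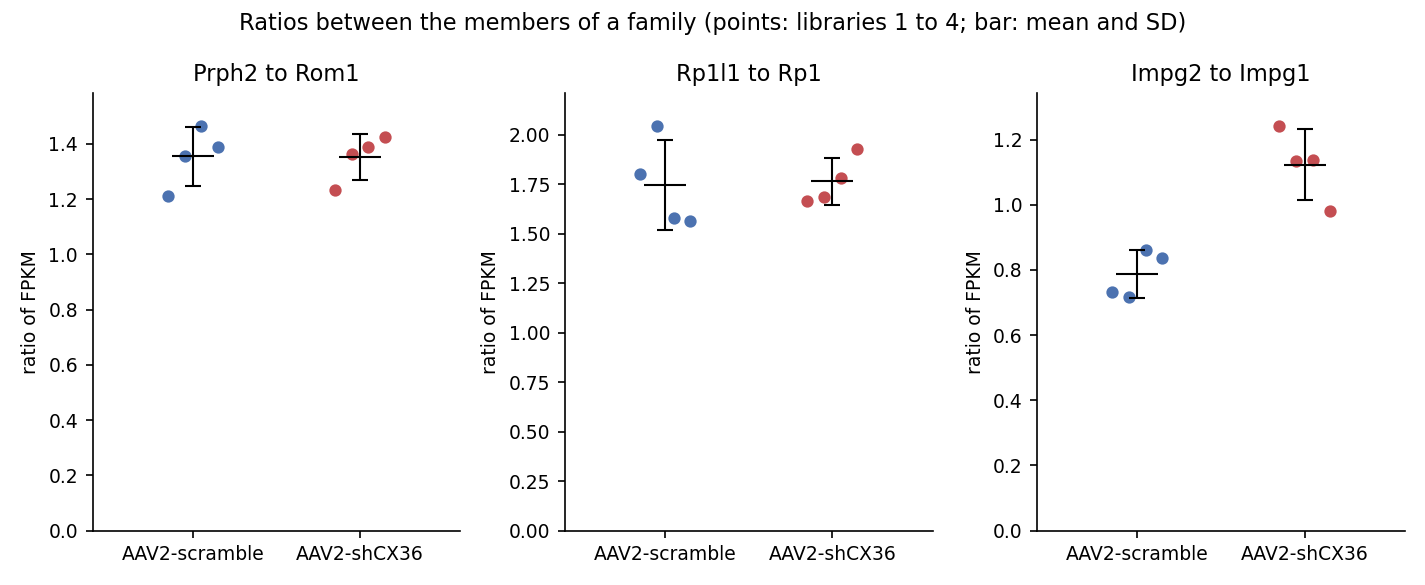
Ratio of FPKM between 2 related genes (y axis, linear from 0) in each library, with AAV2-scramble in blue, AAV2-shCX36 in red, and the mean ± SD of 4 libraries in black. The groups overlap for Prph2 to Rom1 and Rp1l1 to Rp1, and lie apart for Impg2 to Impg1, at 0.718 to 0.861 against 0.980 to 1.24.

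The calls depended on single libraries. Rom1 and Rp1l1 passed with each of the 8 libraries left out in turn, with an adjusted p of up to 0.0417 and 0.0489 in limma. The number of the 10 genes called lower was 2 without AAV2-shCX36 library 1, 2 without 2, 3 without 3 and 4 without 4. It was 7, 4, 2 and 7 without AAV2-scramble library 1, 2, 3 or 4. Without AAV2-shCX36 2 the adjusted p reached 0.0737 for Prph2, 0.0625 for Rp1, 0.125 for Cdhr1, 0.124 for Impg1 and 0.110 for Fscn2. In the same omissions the number of all genes called lower ran from 70 to 591 around the 324 of the full fit. AAV2-scramble 1 and 2 stood apart from the other controls in the mean log2 level of oligodendrocyte (2.76 and 4.25, against 1.13 and 0.98), microglial (5.85 and 5.85, against 4.85 and 3.81), bipolar (4.82 and 4.94, against 3.23 and 3.74) and endothelial markers (4.01 and 4.32, against 2.84 and 2.26), and without them 7 of the 10 genes were called lower. Without AAV2-scramble 3 and 4 it was 8, and without AAV2-shCX36 1 and 4, which had the most lens transcript, it was 1, Rom1. The log2 differences were larger in size there for 6 of the 7 (Prph2 -0.79, Rom1 -0.81, Cdhr1 -0.56, Fscn2 -0.86, Rp1 -0.77 and Rp1l1 -0.79) and -0.47 for Impg1, with larger standard errors and 2 fewer libraries.

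Other photoreceptor genes moved in the same libraries. Of 8 rod markers 6 fell and of 6 cone markers 2 fell, with median log2 differences of -0.70 and -0.73 and none rising. An unadjusted p under 0.05 in limma was found for 7 of the rod and 6 of the cone markers, against 22.6% of all genes. Every AAV2-shCX36 value lay below every AAV2-scramble value for 7 rod and 5 cone markers, against 7.05% of all genes. The mean log2 level of the rod markers ran from 6.20 to 6.72 in AAV2-shCX36 and from 6.90 to 7.35 in AAV2-scramble, and that of the cone markers from 7.60 to 8.18 and from 8.40 to 8.84. Each of the 10 genes was therefore also set against the rod markers of its own library, as the difference of log2 levels, with no test. For Prph2, Rom1, Fscn2, Reep6, Rp1 and Rp1l1 this relative level differed between the group means by -0.07 to 0.02, and the groups overlapped. It also overlapped for Cdhr1 and Impg1, which were higher in AAV2-shCX36 by 0.16 and 0.19.

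Prom1 and Impg2 were higher relative to the rod markers in AAV2-shCX36, and their groups did not overlap. Since the rod markers were themselves lower, the same held for 67.6% of all genes tested, and 0.07% lay wholly below the controls on this scale, so this is not particular to Prom1 and Impg2. For Impg2 the relative log2 level was -3.39, -3.40, -3.13 and -3.43 in AAV2-scramble 1 to 4 and -2.51, -2.44, -2.60 and -3.12 in AAV2-shCX36 1 to 4. AAV2-shCX36 4 lay just above AAV2-scramble 3, and with a pseudocount of 0.1 the Impg2 groups overlapped. For Prom1 it was -2.37, -2.32, -2.55 and -2.81 in AAV2-scramble 1 to 4 and -2.08, -1.97, -2.03 and -2.24 in AAV2-shCX36 1 to 4. The differences of the group means were 0.67 for Impg2 and 0.43 for Prom1, and 0.70 and 0.46 when cone markers replaced the rod markers.

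**Figure D3:**
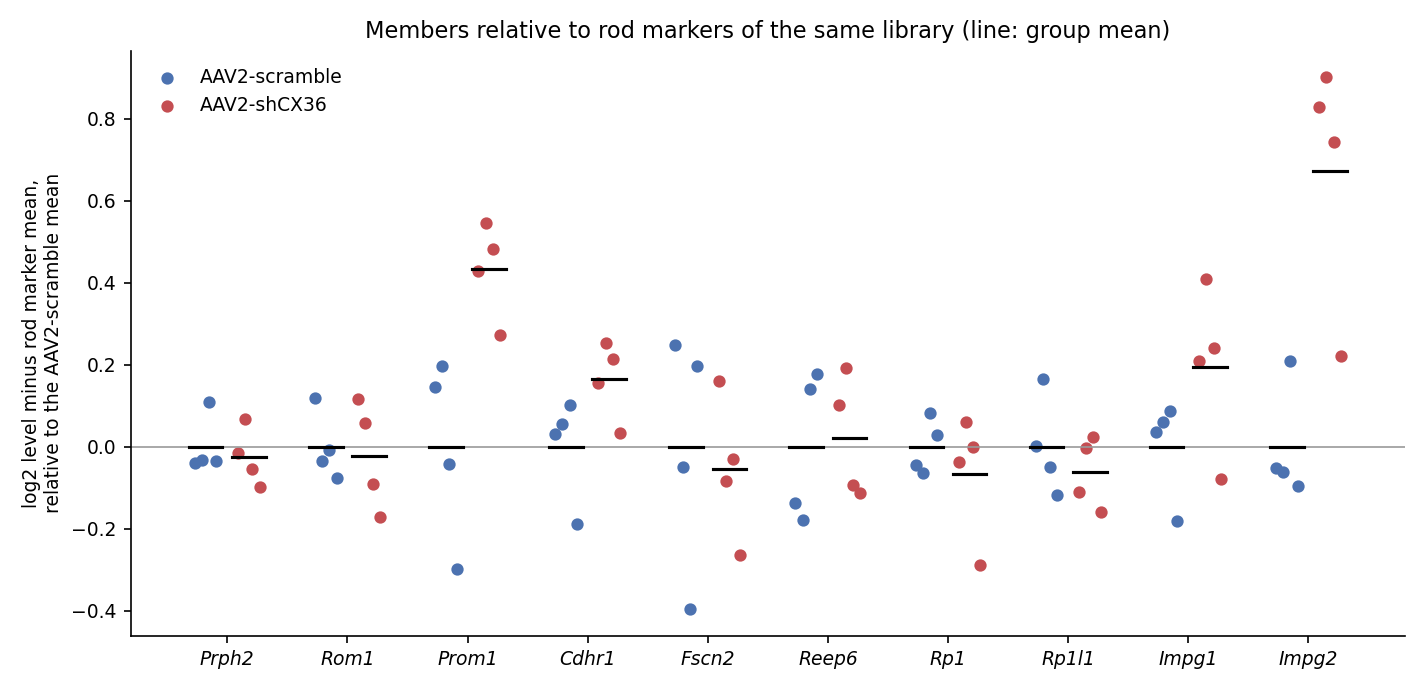
Log2(FPKM + 1) of each gene minus the mean of the 8 rod markers in the same library, shifted so that the AAV2-scramble mean of each gene is 0 (y axis), for AAV2-scramble (blue) and AAV2-shCX36 (red), with group means as lines. The red points lie above all blue points for Prom1 and Impg2 and overlap them for the other 8 genes.

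Among 15 other proteins of the outer segment membrane, 9 fell and none rose, with a median log2 difference of -0.59. Prcd, a small disc protein, fell from 27.7 ± 2.35 to 16.2 ± 1.67 FPKM (adjusted p = 0.00362 in limma), and Rdh8, the outer segment retinol dehydrogenase, from 25.2 ± 3.54 to 15.1 ± 1.23 (adjusted p = 0.0103). Abca4, the retinoid flippase of the disc rim, fell from 45.3 ± 7.74 to 29.4 ± 1.59 FPKM (adjusted p = 0.0268). Among those that fell were also Cngb1 of the rod channel, which binds the rim proteins, the guanylate cyclases Gucy2e and Gucy2f, the exchanger Slc24a1 and the cone opsin Opn1sw. Slc24a2 and Atp8a2 had log2 differences of -0.02 and -0.12 (adjusted p = 0.902 and 0.616). With single libraries left out, the 9 became 4 to 12: 4 without AAV2-shCX36 1 or 2 or AAV2-scramble 3, 5 without AAV2-shCX36 3, 6 without AAV2-shCX36 4 or AAV2-scramble 2, 8 without AAV2-scramble 4 and 12 without AAV2-scramble 1.

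Of 22 genes of the photoreceptor cilium and cytoskeleton 3 fell and none rose, with a median log2 difference of -0.26. The log2 difference was below 0 for 17, and 12 had an unadjusted p under 0.05 in limma, against 22.6% of all genes. For 7 the groups did not overlap and AAV2-shCX36 was lower, against 7.05% of all genes. Among the 3 were Whrn, a scaffold of the periciliary membrane (log2 difference -0.57 ± 0.10, adjusted p = 0.0148 in limma), and Pcare, an actin regulator of disc formation (-0.47 ± 0.09, adjusted p = 0.0207). Of the 5 above 0, Rpgr and Spata7 of the connecting cilium had log2 differences of 0.16 and 0.20 (adjusted p = 0.307 and 0.314 in limma). With AAV2-shCX36 1, 2, 3 or 4 left out, the 3 became 1, 0, 2 and 1, and with AAV2-scramble 1, 2, 3 or 4 left out, 6, 2, 1 and 4.

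Of 6 other matrix genes 4 were tested and none passed in limma, with 3 at an unadjusted p under 0.05. Rbp3, the retinoid carrier of the matrix, had 429 ± 37.5 against 553 ± 90.9 FPKM (adjusted p = 0.137 in limma). Family relatives of the 10 genes, which act largely in other cells, had a median of 0.07. None of the 10 tested of 17 passed in limma, and 2 had an unadjusted p under 0.05. Those were Dclk1, a doublecortin-like kinase (16.3 ± 1.67 against 12.8 ± 2.24 FPKM, adjusted p = 0.151), and Reep1 (44.8 ± 2.63 against 36.6 ± 6.99, adjusted p = 0.186). Fscn1, the fascin of other cell types, had 52.2 ± 3.89 against 54.2 ± 9.84 FPKM (adjusted p = 0.888), so it stood far above Fscn2 in both groups.

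**Figure D4:**
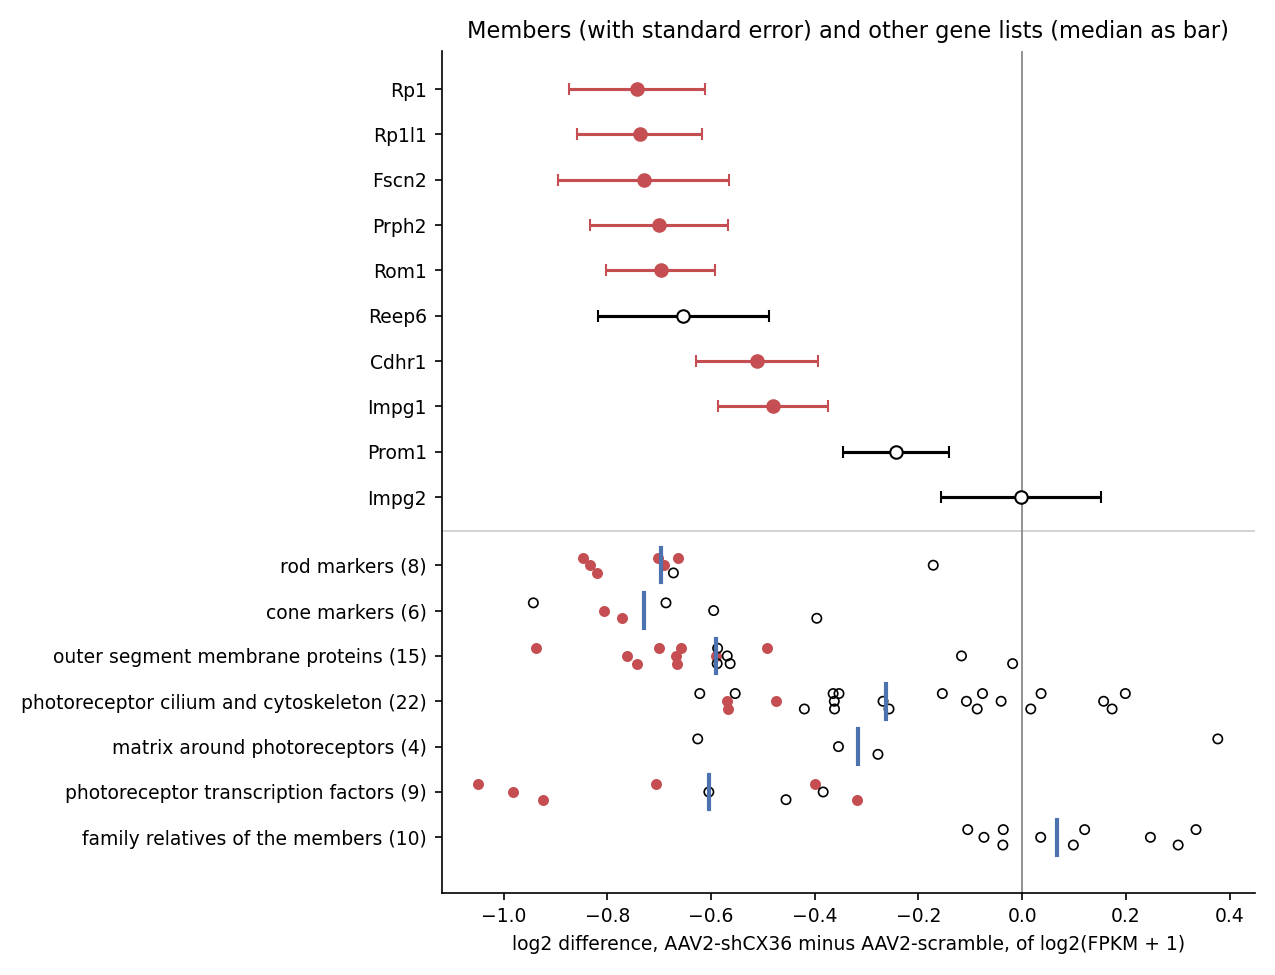
Log2 differences of AAV2-shCX36 minus AAV2-scramble on log2(FPKM + 1) (x axis) for the 10 genes with their standard errors (top) and for each tested gene of 7 other lists, whose medians are blue bars (bottom, number of genes in brackets). Filled red points passed an adjusted p of 0.05 in limma, 7 of them among the 10 genes, and the relatives lie around 0 with a median of 0.07.

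Of 9 photoreceptor transcription factors 6 fell and none rose, with a median of -0.60. Crx, the homeodomain factor of rods and cones, fell from 196 ± 21.6 to 120 ± 13.4 FPKM (log2 difference -0.71 ± 0.11, adjusted p = 0.0108 in limma). Esrrb, a nuclear receptor of rods, fell from 20.4 ± 3.79 to 10.2 ± 1.06 FPKM (adjusted p = 0.00743), and Nrl, Nr2e3, Rorb and Mef2d fell as well, by 1.05, 0.98, 0.40 and 0.32 on the log2 scale. The count of 6 was 3 without AAV2-shCX36 2, 4 without AAV2-shCX36 1 or 3 or AAV2-scramble 3, and 5 to 7 without any other library.

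Transcripts of other cells and pathways differed between the same libraries. Müller glia markers had a summed level of 204 to 347 FPKM in AAV2-shCX36 against 444 to 730 in AAV2-scramble, with 4 of 6 falling. The interferon response list had 458 to 832 against 53.0 to 193 FPKM, with 7 of 7 rising. Lens markers summed to 13.9 to 323 against 0.431 to 16.3 FPKM, and none of the 4 tested passed in limma, though all 4 had an unadjusted p under 0.05. Microglial markers summed to 111 to 188 against 121 to 542 FPKM, with 1 of 6 falling and 5 at an unadjusted p under 0.05 in limma. Oligodendrocyte markers summed to 12.2 to 15.2 FPKM in AAV2-shCX36 and 11.8 to 181 in AAV2-scramble, with none of 6 called or at an unadjusted p under 0.05, and Mog was at 0 in every AAV2-shCX36 library. Ganglion cell markers had a mean log2 level of 7.03 to 7.13 against 6.59 to 7.18, with none of 10 called in limma and 4 at an unadjusted p under 0.05. The part of these differences in the fall of the outer segment genes was not tested.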

How the data were processed

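Gene expression was analysed in 8 mouse retina libraries, 4 AAV2-shCX36 and 4 AAV2-scramble, grouped and numbered by their titles. The authors deposited FPKM values for 24860 gene symbols. The submitters' processing notes name fastp, HISAT2, HTSeq, R 3.2.0, DESeq2 and the builds GRCm38 and mm10, and the annotation and strand setting are not given in the sources used here. 0 value columns were left unmatched. Depth came from steps between low values of single-exon genes, using RefSeq lengths (76.6% to 88.2% of values whole within 0.05 of a fragment). No raw counts were given, so no count model was run.

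Log2(FPKM + 1) of the 12858 genes averaging 1 FPKM or more was fitted in limma 3.58.1 (R 4.3.3; lmFit, eBayes with trend), with Benjamini-Hochberg adjusted p under 0.05 called. Members, lists and tests were chosen with earlier results of these data known. Named genes were the 10 members, Gjd2, each called gene of the 5 other photoreceptor lists or, where none was called, the 2 with the smallest p. Others, such as Slc24a2, Atp8a2, Rpgr, Spata7 and Fscn1, were chosen after their values were seen. Some genes that the rule names are not reported here. Marker lists had these median log2 differences: bipolar -0.31, amacrine -0.02, horizontal -0.40, astrocyte 0.17, microglia -1.27, endothelial 0.34 and red blood cell -0.57. Positions are from GENCODE vM21 and promoters from RefSeq GRCm38.p6. The fit was run on simulated data as a check of the code. That check drew the noise of each gene independently, so it gives no error rate for these libraries. Tables were handled in Python 3.11.15 (numpy 2.4.6, pandas 2.3.3) and drawn with matplotlib 3.10.9.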

Additional observations from a re-analysis of the deposited data

How the results depend on the processing

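The 7 genes called lower of the 10 became 3 with no filter on low values, 1 with the replicate block, 1 without AAV2-shCX36 1 and 4, and 2 to 7 with single libraries left out. They were 5 to 8 under the other pseudocounts, scalings, variance models, the filter of 5 FPKM (which drops Fscn2) and the other omitted pairs, and none of the 10 was called higher in any of these. Deviations from the group means correlated at 0.13, -0.30, 0.23 and -0.27 for same-numbered libraries, and at -0.24 to 0.27 for differently numbered ones. AAV2-shCX36 1 and 4 correlated positively with AAV2-scramble 1 and 2 (0.13 to 0.27) and negatively with AAV2-scramble 3 and 4 (-0.27 to -0.15). AAV2-shCX36 2 and 3 had the reverse signs, at -0.30 to -0.13 and 0.20 to 0.25. What these libraries share was not tested. These values cannot tell whether libraries of equal number share a run, day or animal. The 9 outer segment membrane genes became 5 with no filter, 4 with the replicate block, 2 without AAV2-shCX36 1 and 4, and 4 to 12 with single libraries left out. The 3 cilium genes became 0 with the block, 6 without AAV2-scramble 1 and 2, 5 without AAV2-scramble 3 and 4, 0 without AAV2-shCX36 1 and 4, and 0 to 6 with single libraries left out. The 6 transcription factors became 3 with the block, 1 without AAV2-shCX36 1 and 4, and 3 to 7 with single libraries left out. Of the matrix genes 1 was called lower without AAV2-scramble 1 and 2. Of the relatives 3 were called higher without AAV2-scramble 3 and 4, and 0 to 1 with single libraries left out. Of the 2 genes above the controls relative to rod markers, 1 (Prom1) remained at a pseudocount of 0.1. Over all genes, 324 lower and 288 higher became 134 and 177 with no filter and 57 and 107 with the block. The cause was not tested.

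Impg2 changed sign, never called, at 0.0072 after rescaling to TPM, 0.0026 after quantile normalization, 0.013 with library weights, 0.21 without AAV2-scramble 3 and 4, 0.023 without AAV2-shCX36 1 and 4, and between -0.12 and 0.12 with single libraries left out. The family pairs were also compared in alternatives chosen after seeing the data, as group differences of the log2 ratio taken on log2(FPKM + 1). That of Prph2 to Rom1 was 0.074 without AAV2-scramble 3 and 4, 0.023 without AAV2-shCX36 1 and 4, and -0.056 to 0.040 with single libraries left out. That of Rp1l1 to Rp1 was -0.13, -0.019, and -0.043 to 0.082. For each of these pairs the difference was largest in size with AAV2-scramble 1 and 2 omitted. It was then -0.081 for Prph2 to Rom1 and 0.14 for Rp1l1 to Rp1. That of Impg2 to Impg1 was 0.43 to 0.54 with single libraries left out (exact p = 0.0286 each time) and 0.37 to 0.58 with pairs left out, where 4 against 2 libraries cannot pass 0.05. Depth limits Fscn2 most.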

Other observations

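The cone opsin Opn1sw averaged 901 FPKM over the 8 libraries, at 912 to 1429 FPKM in AAV2-scramble and 493 to 770 in AAV2-shCX36. The relation of this level to how the labelled ganglion cell material was prepared was not tested. The coefficient of variation of the 10 outer segment genes ran from 9.62% (Rom1) to 25.3% (Reep6) in the controls and from 8.31% (Impg1) to 26.0% (Fscn2) in AAV2-shCX36.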
